A study of Danio rerio with 6 samples.

Results

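Messenger RNA for 8 zebrafish genes of protein folding in the endoplasmic reticulum (ER) was followed over the 6 arrays of a study of the transcription elongation factor Spt5. The genes were hspa5, hsp90b1, canx, calr, pdia3, pdia4, pdia6 and xbp1. Their probe sets were found by the platform's gene symbol, after update to current names. This gave 9 probe sets, 1 for each gene and 2 for calr, of 15502 probe sets without the array's controls. The platform names 8793 genes in all. Canx and calr are also older names of clgn and calr3a, which are separate genes today, and those were kept apart.

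Whole embryos of the TL strain were hybridised to Affymetrix zebrafish arrays, and the labels name no mutation or transgene in any group. The Spt5 morpholino group comprised 2 arrays of embryos that received about 2.5 pmol of an antisense oligonucleotide against Spt5 at the start of cleavage and were collected at 21 hours post-fertilization (hpf). The control group comprised 2 arrays of embryos of the same age, injected at the same stage with the same amount of a standard control morpholino. Both oligonucleotides carried carboxyfluorescein, and 1 array of untreated embryos at 21 hpf and 1 of untreated embryos at 5 hpf completed the series. The oligonucleotide that defines the knockdown group is shown here, written 5′ to 3′ without capitals because no stretch of it is singled out.
Spt5 morpholino: gtttctctacagtctgtcgctcctg
It is 25 bases long. The position of its target in supt5h, the zebrafish Spt5 gene, was not given in the sources used here. A morpholino can act without lowering its target's RNA, so the supt5h signal did not check the knockdown. As deposited, that signal was 172.7 and 180.9 in Spt5 knockdown embryos, 187.4 and 209.1 in their controls, and 235.0 and 114.4 in untreated embryos of 21 and 5 hpf. After quantile normalization the 2 morpholino groups overlapped, with a log2 difference of 0.05 ± 0.14 (SE; limma, adjusted p = 0.804).

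Secreted and membrane proteins enter the ER as unfolded chains, and chaperones bind them there while oxidoreductases form and rearrange their disulfide bonds. When unfolded protein accumulates, the unfolded protein response raises transcription of the folding machinery, and xbp1 encodes one of its transcription factors. Roles given below were established mostly in mammalian cells and yeast. In fish embryos much secretion falls to tissues such as the notochord, the hatching gland and the yolk syncytial layer.

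Median intensities ran from 26.8 to 43.8 at 21 hpf, against 18.1 at 5 hpf. Replicate 2 was brighter than replicate 1 with both morpholinos, at 36.1 against 26.8 for Spt5 and 43.8 against 32.4 for the control. The mean log2 spike-in signal was 8.29 against 7.89 and 8.24 against 7.83. The part of this offset in overlaps of deposited values between the groups was not tested. Among the arrays at 21 hpf the 3′ to 5′ ratio of the actin controls was 6.94 and 6.99 in the Spt5 morpholino group, 9.91 and 9.61 in the control group and 7.59 on the untreated array. It was 1.96 at 5 hpf. For the gapdh controls the same ratio was 1.39 and 1.42 in the Spt5 morpholino group and 1.70 and 1.76 in the control group. On the untreated arrays it was 1.24 at 21 hpf and 0.95 at 5 hpf. This measure of RNA and labelling quality therefore separated the 2 morpholino groups, and its part in the differences below was not tested. The labels do not state that replicate arrays came from separate clutches, so a p-value reflects the spread among the arrays alone, and that spread may be technical. In RNA of whole embryos, fewer cells of a type and less RNA per cell cannot be told apart.

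**Figure D1:**
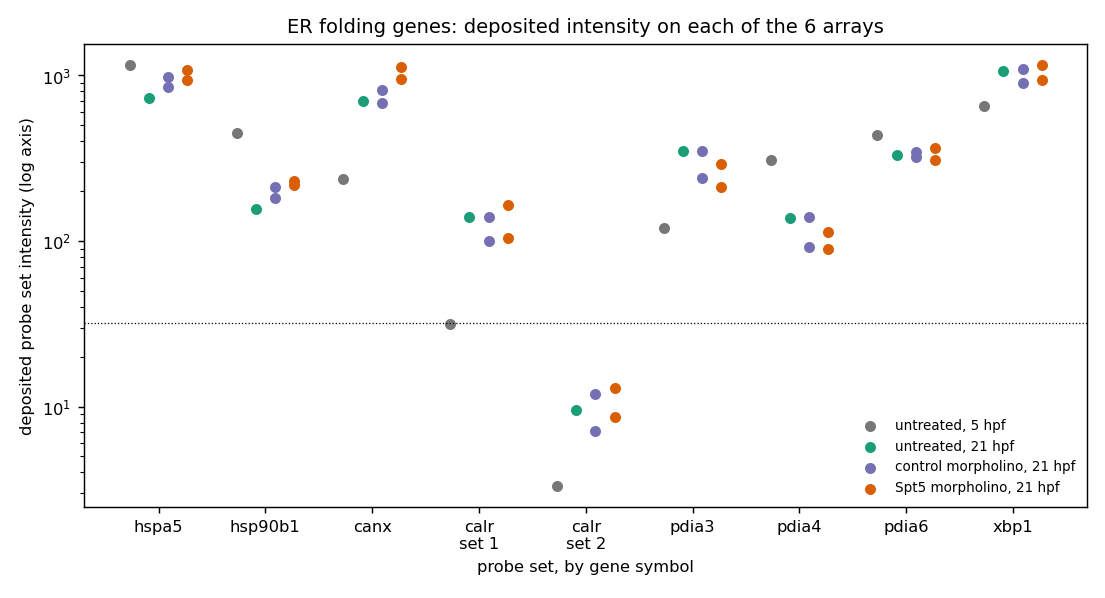
Deposited intensity (log axis, no unit) of the 9 probe sets on each of the 6 arrays; each point is 1 array, coloured by group, and the dotted line marks an intensity of 32. The canx points with the Spt5 morpholino (955.4 and 1128.7) lie above those with the control morpholino (682.7 and 817.7), and the other calr probe set stays below the line on every array.

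Of these genes, canx, hspa5 and xbp1 were higher with the Spt5 morpholino than with the control morpholino, by 1.69-fold, 1.34-fold and 1.29-fold after quantile normalization of the 4 arrays. This comparison is the one the study was designed around, a search for genes that depend on Spt5. Of the 9 probe sets, 8 reached a log2 intensity of 5 on at least 2 arrays and were tested with limma. At a Benjamini-Hochberg adjusted p under 0.05, 3 of the 8 were higher and 0 lower. The same test called 24.3% of 8457 probe sets higher and 23% lower, and 3 calls in 8 lie near that background. Of the 8, 5 were higher and 0 lower at an unadjusted p under 0.05, where 29% and 26.5% of all probe sets were. The median log2 difference of the 8 was 0.36, beside 0.04 over all probe sets tested, whose quartiles were -0.34 and 0.38. Regardless of sign, the median size over all probe sets was also 0.36. By size canx exceeded 79.1% of all probe sets, hspa5 56.0% and xbp1 50.3%. The arrays of the 2 groups did not overlap for 6 of the 8, each time higher with the Spt5 morpholino, where 40.5% of all probe sets showed that pattern and 36.5% the opposite one.

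The ER Hsp70 chaperone BiP is encoded by hspa5, and it binds unfolded chains as well as the sensors of the unfolded protein response. Its deposited intensity was 943.3 and 1081.8 in the Spt5 morpholino group, 845.8 and 978.6 in the control group, 735.7 untreated at 21 hpf and 1149.1 untreated at 5 hpf. The Spt5 and control arrays overlapped in these deposited values, with replicate 2 the brighter array in both groups. On the normalized log2 scale they did not, with 10.20 and 10.06 against 9.75 and 9.66. The mean difference was 0.42 ± 0.10 (SE, n = 2 against 2; limma, adjusted p = 0.0248).

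The ER form of Hsp90, Grp94, is the product of hsp90b1 and folds a restricted set of secreted and cell surface proteins. Its deposited intensity was 219.1 and 231.2 in the Spt5 morpholino group, 181.5 and 213.1 in the control group, 156.9 untreated at 21 hpf and 450.9 untreated at 5 hpf. Both Spt5 arrays lay above both control arrays, and the untreated array at 21 hpf was the lowest of the 6. The normalized difference between the morpholinos was 0.39 ± 0.13 on the log2 scale, with a 95% interval from 0.07 to 0.72, and missed the threshold (limma, adjusted p = 0.0561). The difference depended on which Spt5 array was kept, at 0.26 without replicate 1 of the Spt5 morpholino and 0.54 without replicate 2.

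Calnexin, from canx, is the membrane-bound lectin that holds newly made glycoproteins until they are folded. Its deposited intensity was 955.4 and 1128.7 in the Spt5 morpholino group, 682.7 and 817.7 in the control group, 700.9 untreated at 21 hpf and 235.3 untreated at 5 hpf. Both Spt5 arrays stood above every other array. Normalized log2 intensity was 10.18 ± 0.06 against 9.42 ± 0.06 in the control group (mean ± SD, n = 2 each). The difference of 0.76 ± 0.10 (SE; 95% interval 0.51 to 1.01; limma, adjusted p = 0.00382) was the largest among the 8. It passed the threshold with each of the 4 arrays left out in turn, at 0.70 to 0.82.

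Calreticulin is the soluble counterpart of calnexin and also stores calcium. The brighter calr probe set read 104.5 and 164.2 in the Spt5 morpholino group, 99.7 and 140.4 in the control group, 140.0 untreated at 21 hpf and 31.6 untreated at 5 hpf. The deposited values of the morpholino groups overlapped, and the normalized ones did not, with means of 7.14 ± 0.20 and 6.77 ± 0.10 (SD, n = 2 each). The log2 difference was 0.36 ± 0.13, with an interval from 0.03 to 0.70 (limma, adjusted p = 0.0734). The other calr probe set read 3.3 to 12.9 on the 6 arrays, below the filter, and was not tested. For 2 relatives of these lectins, clgn, a calnexin relative known from the mammalian testis, fell by 0.49 ± 0.10 (limma, adjusted p = 0.0151), and calr3a differed by 0.07 ± 0.09 (limma, adjusted p = 0.541).

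The oxidoreductase ERp57, from pdia3, works with calnexin and calreticulin on glycoproteins. Its deposited intensity was 211.7 and 292.7 in the Spt5 morpholino group, 240.5 and 347.8 in the control group, 348.6 untreated at 21 hpf and 119.1 untreated at 5 hpf. The morpholino groups overlapped before and after normalization. The log2 difference was -0.02 ± 0.12, and its interval, from -0.32 to 0.27, held changes of either sign (limma, adjusted p = 0.897).

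ERp72, from pdia4, and P5, from pdia6, are protein disulfide isomerases found in chaperone complexes with BiP. For pdia4 the deposited intensity was 89.2 and 113.5 in the Spt5 morpholino group, 91.9 and 139.4 in the control group, 137.8 untreated at 21 hpf and 309.7 untreated at 5 hpf. Its log2 difference between the morpholinos was 0.05 ± 0.12, with an interval from -0.25 to 0.36 (limma, adjusted p = 0.724). The groups overlapped, and 5 hpf stood far above the rest.
For pdia6 the deposited intensity was 310.3 and 363.2 in the Spt5 morpholino group, 320.5 and 342.8 in the control group, 329.3 untreated at 21 hpf and 435.0 untreated at 5 hpf. The deposited values overlapped. The normalized ones, 8.55 and 8.42 against 8.40 and 8.15, did not, and their difference was 0.21 ± 0.12 with an interval from -0.11 to 0.52 (limma, adjusted p = 0.221).

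The transcription factor gene xbp1 is regulated by splicing as well as by level, and the splice forms were not measured here. Its deposited intensity was 943.4 and 1155.8 in the Spt5 morpholino group, 896.5 and 1097.5 in the control group, 1059.9 untreated at 21 hpf and 650.2 untreated at 5 hpf. These values overlapped among the groups at 21 hpf. After normalization the replicates lay close together, at 10.20 and 10.17 against 9.82 and 9.81, and the log2 difference was 0.37 ± 0.09 (SE; limma, adjusted p = 0.0243).

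Of the 3 calls, those of hspa5 and xbp1 were lost whichever array was left out. Then the hspa5 difference was 0.36 to 0.51 (limma, adjusted p = 0.0501 to 0.104) and the xbp1 difference 0.34 to 0.40 (limma, adjusted p = 0.0737 to 0.0928). Over all probe sets, too, fewer were called with 1 array left out. The scale of the arrays mattered as well. Against the deposited values, and against the array's spike-in controls, all probe sets together shifted by a median of -0.21 and -0.27 between the morpholino groups. On those scales the canx difference was 0.47 and 0.42 (limma, adjusted p = 0.332 and 0.0287), that of hspa5 0.15 and 0.10, and that of xbp1 0.07 and 0.02. The difference of pdia4 turned to -0.17 and -0.22, and that of pdia6 became 0.02 and -0.03. Relative to the median of all probe sets, the differences of canx were 0.72, 0.69 and 0.70 on the normalized, deposited and spike-in scales, those of hspa5 0.39, 0.36 and 0.37, and those of xbp1 0.33, 0.29 and 0.30. Over all probe sets the calls split into 2059 higher and 1942 lower after quantile normalization, 305 and 1350 as deposited, and 910 and 3516 on the spike-in scale.

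**Figure D2:**
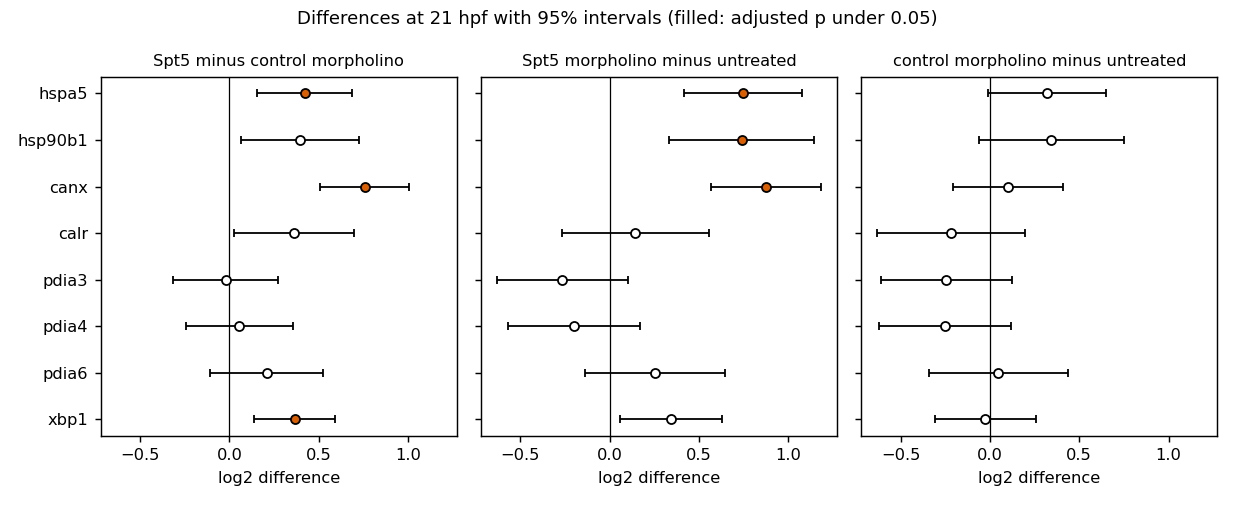
Log2 differences of the 8 tested probe sets in 3 comparisons at 21 hpf, with 95% intervals from limma; filled points have an adjusted p under 0.05. With the Spt5 morpholino, canx and hspa5 are filled against both the control morpholino (0.76 and 0.42) and the untreated array (0.87 and 0.75), and no point is filled for the control morpholino against the untreated array.

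Set against untreated embryos of the same age, canx, hspa5 and hsp90b1 were higher with the Spt5 morpholino, by 1.83-fold, 1.68-fold and 1.67-fold. The labels state no purpose for setting injected against untreated embryos at 1 age. Both such comparisons use arrays of the comparison above and the same single untreated array, so the values are given side by side. The log2 differences were 0.87 ± 0.12 for canx, 0.75 ± 0.13 for hspa5 and 0.74 ± 0.16 for hsp90b1 (SE, n = 2 against 1; limma, adjusted p = 0.00549, 0.0102 and 0.0188). In this fit the spread came from the morpholino groups alone. Of the 8 probe sets, 3 were called higher and 0 lower, where 23% and 20.9% of 8701 probe sets were. The median of the 8 was 0.30, beside 0.03 over all probe sets, where the median size regardless of sign was 0.43. For xbp1 the difference was 0.34 ± 0.11 (limma, adjusted p = 0.0576).

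The control morpholino differed from untreated embryos by 0.32 ± 0.13 for hspa5 (95% interval -0.01 to 0.65; limma, adjusted p = 0.224) and by 0.34 ± 0.16 for hsp90b1 (-0.06 to 0.75; limma, adjusted p = 0.263). For canx it differed by 0.10 ± 0.12 and for xbp1 by -0.03 ± 0.11. With limma 0 of the 8 were called, while 2.87% of all probe sets were. At an unadjusted p under 0.05, 0 of the 8 were higher or lower, where 12.8% of all probe sets were higher and 10.6% lower. Calr, pdia3 and pdia4 were the members with the most negative differences, at -0.22, -0.24 and -0.25. The intervals of all 8 included 0.
Leaving out replicate 1 of the Spt5 morpholino ended the call of hsp90b1 against untreated embryos (0.60; limma, adjusted p = 0.0510). On the spike-in scale only canx was called higher there (0.52; limma, adjusted p = 0.0325), and pdia3 and pdia4 were called lower, at -0.53 and -0.50 (limma, adjusted p = 0.0234 and 0.0342). As deposited, no member was called. Over all probe sets the median of this comparison was -0.28 as deposited and -0.33 on the spike-in scale, with 255 higher and 1270 lower, and 926 and 3408, in place of 2001 and 1822.

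Between the untreated ages some folding genes were more abundant at 5 hpf and others at 21 hpf, as was so among all probe sets. The study used these ages to ask how far the genes affected by the knockdown are activated in normal development. After quantile normalization of the 2 arrays, hsp90b1 was 4.34-fold lower at 21 hpf, hspa5 4.06-fold, pdia4 3.19-fold and pdia6 2.08-fold lower. In contrast calr was 2.96-fold, pdia3 2.19-fold and canx 1.90-fold higher at 21 hpf. Each age had 1 array, so these differences have no replicate check and no test. At a threshold of 2-fold, 2 of the 8 were higher and 4 lower, where 30.2% and 32.8% of 9294 probe sets were. The median of the 8 was -0.73 on the log2 scale, beside -0.16 over all probe sets. Regardless of sign, the median size over all probe sets was 1.43. By size the differences of the 8 exceeded those of 15.9% (xbp1) to 66.6% (hsp90b1) of all probe sets.

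**Figure D3:**
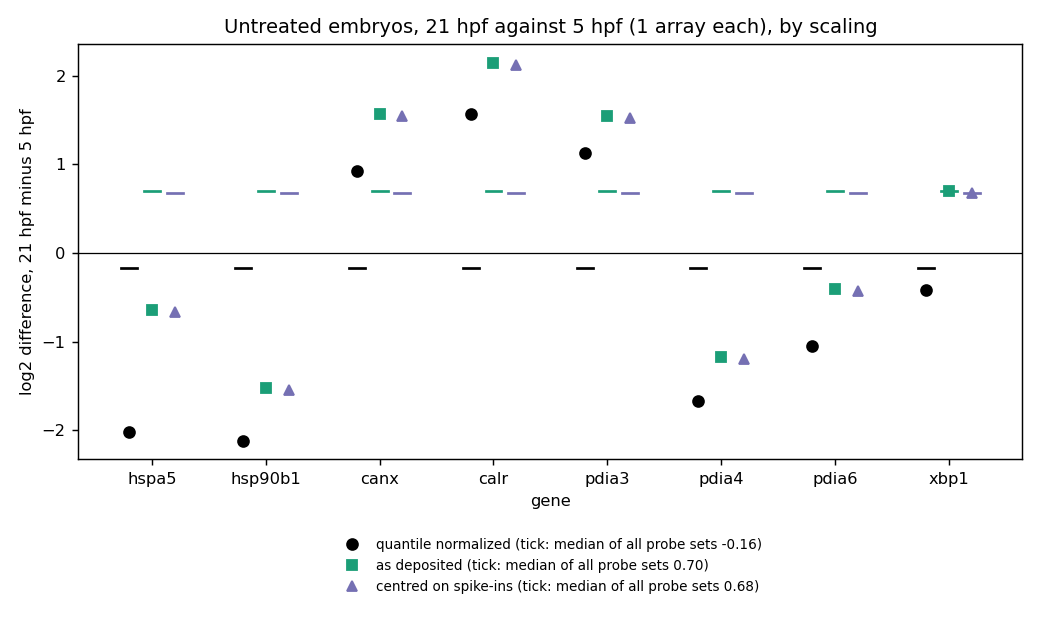
Log2 difference between the untreated arrays, 21 hpf minus 5 hpf, for the 8 genes under 3 scalings; short ticks mark the median of all probe sets under each. The genes hspa5, hsp90b1, pdia4 and pdia6 are below 0 and canx, calr and pdia3 above 0 under all 3, and xbp1 goes from -0.41 to 0.70 and 0.68.

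Scaling moved these values further than those of the morpholinos. At 2-fold, 3 of the 8 were higher and 2 lower both as deposited and on the spike-in scale. All probe sets together had a median of 0.70 as deposited and 0.68 on the spike-in scale, and they split into 2806 higher and 3053 lower, 4292 and 1705, and 4230 and 1740 under the 3 scalings. The intensity of xbp1 was lower at 21 hpf by 0.41 after quantile normalization, and higher by 0.70 as deposited and 0.68 on the spike-in scale, so its direction flipped. The hspa5 difference was -2.02, -0.64 and -0.67, and that of hsp90b1 -2.12, -1.52 and -1.55. Relative to the median of all probe sets, hspa5 stood at -1.86, -1.35 and -1.35, and hsp90b1 at -1.95, -2.23 and -2.22. On the same relative scale pdia4 stood at -1.51, -1.87 and -1.87, pdia6 at -0.89, -1.11 and -1.10, calr at 1.73, 1.44 and 1.45, pdia3 at 1.30, 0.84 and 0.85, and canx at 1.09, 0.87 and 0.87. The lectins and their partner oxidoreductase thus stood on the side of 21 hpf, and the Hsp70 and Hsp90 chaperones with both BiP-associated isomerases on the side of 5 hpf, under all 3 scalings.

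Profiles over the 6 arrays, normalized together and centred on each gene's mean, were closest for hspa5 and hsp90b1. Their Euclidean distance was 0.11 on the log2 scale, and on no array did the centred profiles differ by more than 0.08. Among 5778 other named genes hspa5 was the nearest to hsp90b1. The distance was 0.61 between calr and pdia3, 0.66 between calr and canx, 0.69 between pdia6 and xbp1 and 0.80 between hspa5 and pdia4. These distances describe 6 arrays that all genes share.

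**Figure D4:**
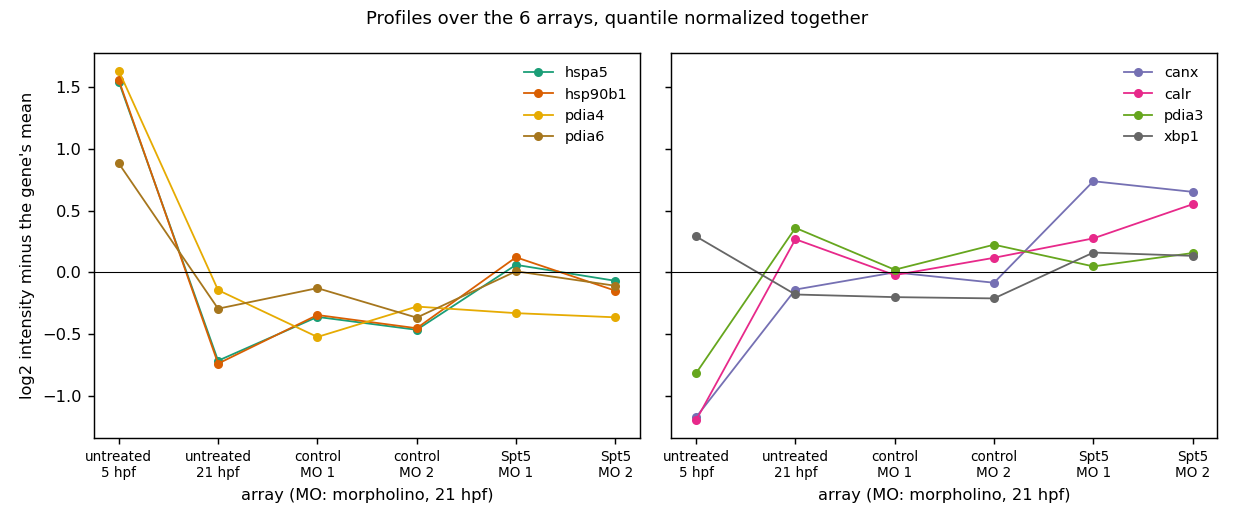
Log2 intensity minus the gene's mean on each of the 6 arrays, quantile normalized together, 1 line per gene; genes with their maximum at 5 hpf by a wide margin are on the left. The lines of hspa5 and hsp90b1 nearly coincide, differing by at most 0.08, and canx peaks on both Spt5 morpholino arrays.

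The levels of hspa5 and hsp90b1 followed the same order, highest at 5 hpf, then with the Spt5 morpholino, the control morpholino and in untreated embryos at 21 hpf. On the scale of all 6 arrays hspa5 read 11.56 at 5 hpf, 10.08 and 9.95 in the Spt5 morpholino group, 9.66 and 9.56 in the control group and 9.31 in untreated embryos at 21 hpf. For neither gene did the tests separate the control morpholino from the untreated array, and for hsp90b1 the difference between the morpholinos missed the threshold as well. The place of 5 hpf in these orders rests on 1 array with no test. For canx the order was Spt5 morpholino (10.11 and 10.02), control morpholino (9.37 and 9.28), untreated at 21 hpf (9.23) and 5 hpf (8.20), and the test did not separate the middle pair. For calr, pdia3, pdia4 and pdia6 no neighbouring groups at 21 hpf were told apart by the tests. The xbp1 order was 5 hpf (10.21), Spt5 morpholino (10.08 and 10.06), untreated at 21 hpf (9.74) and control morpholino (9.72 and 9.71), and the tests separated the Spt5 morpholino from the control morpholino but not from the untreated array. As deposited, 5 hpf was instead the lowest of the 6 arrays for xbp1, at 650.2.

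Outside the 8 genes, the named gene nearest to both hspa5 and hsp90b1 was ing2, at 0.09 and 0.17, where the median distance over 5771 genes was 2.14 and 2.16. The nearest to canx was srsf6b at 0.14, to calr ubald1a at 0.15, to pdia3 pepd at 0.12 and to pdia4 spryd7b at 0.22. The nearest to pdia6 was arrb2a at 0.13 and to xbp1 wdr75 at 0.09.

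Around these chaperones, 107 genes of 7 ER lists were on the array, of 170 listed, and 98 were tested between the morpholinos. Of the 98, 33 were higher and 12 lower with the Spt5 morpholino, with a median log2 difference of 0.18, beside 0.04 over all probe sets. The 33 include stt3b and bbc3, dim on both control arrays, for which a lower result was not possible. Other genes kept in this way were not counted. The shares of all probe sets called, given above, were 24.3% and 23%. With 1 array left out the counts were 17 to 25 higher and 6 to 9 lower. They were 3 and 7 as deposited, where 305 and 1350 of 8485 probe sets were called higher and lower. On the spike-in scale they were 11 and 26, with a median of -0.13, where 910 and 3516 of 8480 probe sets were called. Fewer of all probe sets were also called with 1 array left out. The same backgrounds apply to the counts of each list below. The balance of higher and lower genes thus turned with the scaling, as it did over all probe sets. Relative to the median of all probe sets, the median of the lists stood at 0.14 as deposited and 0.15 on the spike-in scale.

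Partners of the Hsp70 and Hsp90 chaperones had the highest median of the 7 lists, 0.46, and 5 of 8 tested genes were higher and 0 lower. These were dnajc3b, which encodes a co-chaperone of BiP, at 0.89 ± 0.11; manf, a secreted stress factor, at 0.63 ± 0.09; dnajc10, an oxidoreductase with a J domain, at 0.62 ± 0.10; hyou1, an Hsp70 relative that exchanges nucleotide on BiP, at 0.53 ± 0.11; and sdf2. Adjusted p-values from limma were 0.00321, 0.00579, 0.00694 and 0.013 for the first 4. The call of hyou1 was lost without replicate 1 of the Spt5 morpholino, and 3 to 5 of the list were called with 1 array left out. With the filter at log2 6, 3 of 6 were higher and 1 lower, where 1727 and 1576 of 5921 probe sets were. In the main fit at an unadjusted limma p under 0.05, 5 of 8 were higher and 1 lower. Of all probe sets 29% and 26.5% were. On the spike-in scale 2 of the list were higher and 1 lower, and as deposited 0 were called.

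Among the other ER oxidoreductases 1 of 10 was higher and 1 lower, with a median of 0.12. The higher gene was tmx1, a membrane-bound thioredoxin relative, at 0.90 ± 0.10 (limma, adjusted p = 0.00264). The lower gene was prdx4, a peroxiredoxin that uses ER peroxide, at -0.64 ± 0.10 (limma, adjusted p = 0.00645). Both calls held with each array left out and on the spike-in scale. The isomerases pdia5 and pdia7 differed by 0.33 ± 0.14 and 0.20 ± 0.12 and were not called.

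The lectin cycle and N-glycosylation list was split, with 4 of 19 higher, 3 lower and a median of -0.01. The cargo receptor lman2 was higher by 0.57 ± 0.10 (limma, adjusted p = 0.00823). The gene stt3b, for a catalytic subunit of oligosaccharyltransferase, was higher by at least 1.51-fold (limma, adjusted p = 0.0039). Both its control arrays were below log2 5, so it was kept because both Spt5 arrays reached that level. A lower result was therefore not open to stt3b, and its p-value does not test direction. Another subunit of oligosaccharyltransferase, rpn1, fell by 0.62 ± 0.10 and the cargo receptor subunit mcfd2 fell by 0.96 ± 0.20 (limma, adjusted p = 0.00693 and 0.0154). With 1 array left out 2 to 3 genes of the list were higher and 2 to 3 lower. On the spike-in scale 1 was higher and 8 lower.

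In the list of prolyl isomerases, hydroxylases and collagen chaperones 5 of 11 were higher and 2 lower, with a median of 0.10. The collagen prolyl 4-hydroxylase subunit genes p4ha1b and p4ha2 rose, p4ha1b by 1.35 ± 0.13 and p4ha2 by 1.28 ± 0.09 (limma, adjusted p = 0.00179 and 0.00121). The collagen prolyl 3-hydroxylase partner crtap rose by 0.79 ± 0.10 and the isomerase fkbp14 by 0.70 ± 0.10 (limma, adjusted p = 0.00326 and 0.00462). All 4 kept their calls on the spike-in scale and with each array left out, and p4ha1b and p4ha2 also as deposited. The lower count of the list went from 2 to between 0 and 1 with 1 array left out, and it was 4 on the spike-in scale.

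Of the 6 genes of the 7 lists that differed between control morpholino and untreated embryos, named here after their values were seen, p4ha1b, p4ha2, serpinh1b, plod1a and bbc3 were higher and asns lower with the control morpholino. The log2 differences were 1.08 for p4ha1b, 0.85 for p4ha2, 1.14 for the collagen chaperone gene serpinh1b and 1.14 for plod1a, a lysyl hydroxylase gene (limma, adjusted p = 0.0439, 0.0389, 0.0378 and 0.0264). Levels of bbc3 lay below log2 5 in both groups. Against untreated embryos the Spt5 morpholino gave 2.43 for p4ha1b and 2.12 for p4ha2. Between the morpholinos serpinh1b fell by 0.44 ± 0.11 (limma, adjusted p = 0.0284). In this comparison of control morpholino with untreated embryos 5 of 101 list genes were higher and 1 lower, where 1.75% and 1.13% of all probe sets were. At an unadjusted p under 0.05 these counts were 13 and 2, against the shares of 12.8% and 10.6% given above. All 6 calls were lost whichever array was left out, as were nearly all calls over all probe sets in this comparison. As deposited 1 list gene was higher and 0 lower, where 35 and 23 of 8821 probe sets were.

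At the main filter, genes for entry into the ER, and for removal of proteins from it, had calls in 1 direction after quantile normalization. The median of 20 tested genes of the translocon, signal recognition particle and signal peptidase was 0.27. Of these, 8 were higher and 0 lower, where 24.3% and 23% of all probe sets were. Among them were srp54 at 0.65 ± 0.09 and srp68 at 0.51 ± 0.15, subunits of the signal recognition particle, sec11a of the signal peptidase at 0.47 ± 0.10, and the channel gene sec61a1b at 0.45 ± 0.09. Their limma adjusted p-values were 0.00471, 0.0453, 0.0172 and 0.0147. Fewer of the list were called with 1 array left out, as was so over all probe sets. On the spike-in scale 1 of the list was called, while as deposited 0 were. Of these 4 genes, srp54 kept its call with each array left out. Those of srp68 and sec61a1b were lost without either Spt5 array and without replicate 1 of the control morpholino, and that of sec11a without replicate 2 of the Spt5 morpholino and without replicate 1 of the control morpholino.

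The median of 17 genes of ER-associated degradation was 0.24. Of these, 7 were higher and 0 lower, where 24.3% and 23% of all probe sets were. They included erlec1, a lectin that recognises misfolded glycoproteins, at 0.78 ± 0.10, herpud2 at 0.60 ± 0.12 and herpud1 at 0.56 ± 0.09, membrane proteins of the ubiquitin ligase complexes, and vcp, the ATPase that extracts substrates, at 0.54 ± 0.09. Limma adjusted p-values were 0.00366, 0.0124, 0.00694 and 0.00874. The call of herpud2 was lost without replicate 2 of the Spt5 morpholino, and 3 to 7 of the list were called with 1 array left out. With the filter at log2 6, 8 of 16 were higher and 2 lower, where 1727 and 1576 of 5921 probe sets were. In the main fit at an unadjusted limma p under 0.05, 8 of 17 were higher and 2 lower, where 29% and 26.5% of all probe sets were. On the spike-in scale 1 gene of the list was higher and 3 lower. As deposited 0 were called.

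Among sensors and regulators of the unfolded protein response 3 of 13 genes were higher and 6 lower, with a median of -0.29. The gene of the stress transcription factor Atf4, atf4a, fell by 0.77 ± 0.15, bcap31, an ER membrane cargo protein, fell by 0.72 ± 0.10, and eif2s1b, the phosphorylated subunit of initiation factor eIF2, fell by 0.57 ± 0.11 (limma, adjusted p = 0.0119, 0.00528 and 0.0112). The call of eif2s1b was lost without replicate 1 of the Spt5 morpholino. The gene bbc3, which encodes Puma, a cell death protein also induced by p53, was higher by at least 2.33-fold (limma, adjusted p = 0.00118). As with stt3b, both control arrays were below log2 5 and the Spt5 arrays brought bbc3 into the test. Its p-value therefore does not test direction either. The stress phosphatase subunit gene ppp1r15a was higher by 0.41 ± 0.11 and the sensor kinase gene eif2ak3 differed by 0.09 ± 0.10, both named after their values were seen. With 1 array left out 1 to 2 genes of the list were higher and 3 to 5 lower. On the spike-in scale 1 was higher and 7 lower, where 910 and 3516 of 8480 probe sets were.

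**Figure D5:**
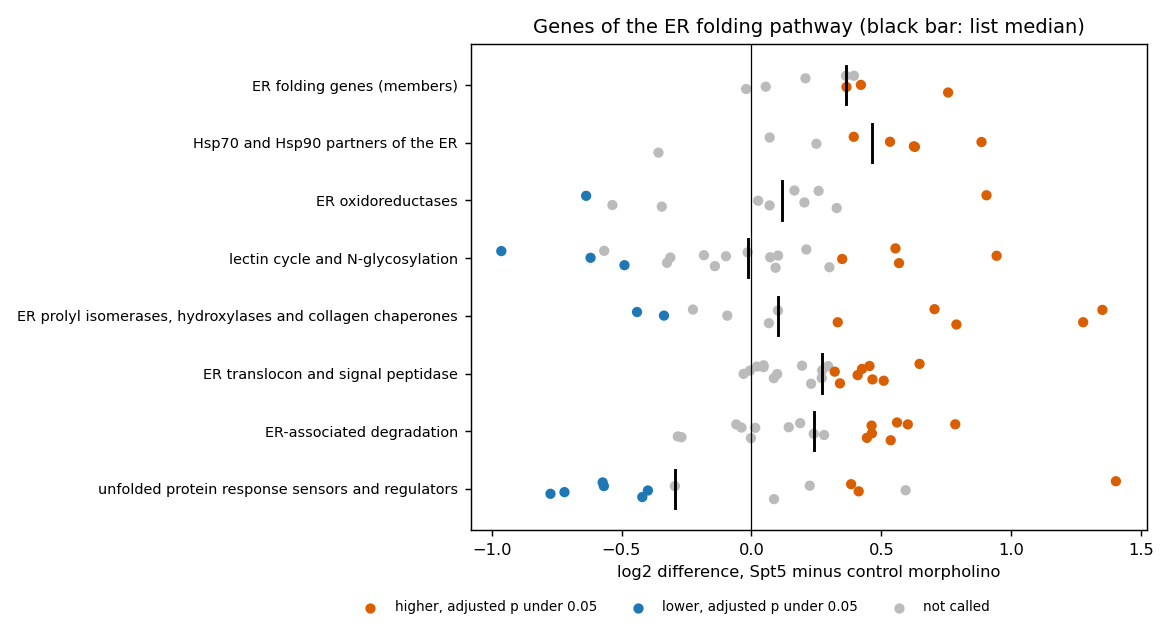
Log2 difference, Spt5 minus control morpholino, for each tested gene of the 8 chaperone genes (top row) and the 7 ER lists; colour marks an adjusted p under 0.05 and black bars mark medians. Translocon and degradation genes called are all to the right, regulators of the unfolded protein response lie to both sides, and p4ha1b and p4ha2 reach 1.35 and 1.28.

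Of 26 list genes chosen by size among those called, 17 kept their calls on the spike-in scale. They were chosen by their values on these same arrays, so this count is no independent check. Without an Spt5 array 24 of the 26 could be tested. The others, stt3b and bbc3, were dim on both control arrays and then no longer passed the filter. Against untreated embryos 29 of 101 list genes were higher with the Spt5 morpholino and 11 lower, where 23% and 20.9% of all probe sets were. The 29 include stt3b and bbc3, dim on the untreated array and both control arrays, for which a lower result was not possible. Other genes kept in this way were not counted. Of these 101, 17 were higher and 27 lower on the spike-in scale, where 926 and 3408 of 8739 probe sets were. As deposited 4 were higher and 3 lower, where 255 and 1270 of 8821 probe sets were. The balance thus turned on the spike-in scale here too. Relative to the median of all probe sets, the median of the list genes stood at 0.19 on both scales. Leaving out 1 array gave 20 to 30 higher and 6 to 11 lower.

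Between the untreated ages, again with 1 array each and no test, 30.2% of all probe sets were at least 2-fold higher at 21 hpf and 32.8% lower after quantile normalization. All 7 lists together held 24 of 101 genes at least 2-fold higher at 21 hpf and 25 lower, with a median of -0.06. Partners of Hsp70 and Hsp90 held 0 genes at least 2-fold higher at 21 hpf and 6 of 8 lower, with a median of -1.73. Among them manf differed by -2.53 and hyou1 by -1.85. Degradation genes held 0 higher and 8 of 19 lower, with a median of -0.81, erlec1 at -2.50 and herpud1 at -2.39. The collagen list held 6 of 11 higher and 0 lower (median 1.47), and translocon genes 7 of 19 higher and 1 lower (median 0.59). The higher collagen genes include p4ha2 and crtap, below log2 5 at 5 hpf, for which a lower result was not possible. As deposited, the higher and lower counts were 2 and 4 of 9 for the partners, 1 and 6 of 18 for degradation, 7 and 0 of 11 for the collagen list and 12 and 0 of 20 for the translocon, where 4292 and 1705 of 9619 probe sets were. Relative to the median of all probe sets as deposited, the medians of these lists were -1.70, -1.02, 1.28 and 0.74. Of the remaining lists after quantile normalization, the lectin cycle list held 6 of 21 higher and 5 lower, with a median of 0.01. Oxidoreductases held 1 of 11 higher and 3 lower (median 0.18), and regulators of the unfolded protein response 4 of 12 higher and 2 lower (median 0.01). The lower genes include stt3b of the lectin cycle list and bbc3 of the regulators. Both were below log2 5 at 21 hpf, so a higher result was not possible for them. Other genes of the lists kept through 1 age alone were not counted.

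Markers of secretory tissues moved between the groups as well. Of 12 tested notochord and hatching gland genes 3 were higher and 6 lower with the Spt5 morpholino, where 24.3% and 23% of all probe sets were. Their log2 differences went both ways, from -2.11 to 1.09. Among those that fell was agr2, itself a disulfide isomerase relative, by 1.34 (limma, adjusted p = 0.00112). Leaving out 1 array gave 2 to 4 higher and 4 to 6 lower, and the median of the list ran from -0.38 to 0.03. The summed normalized intensity of the 14 such genes on the array was 3016 and 3033 in the Spt5 morpholino group, 2931 and 2994 in the control group, 2582 untreated at 21 hpf and 577 untreated at 5 hpf. Of 20 genes of yolk syncytial layer, liver and gut 6 were higher and 10 lower, and their sum was 18317 and 18410 against 19365 and 19049, with 21562 and 693 in untreated embryos of 21 and 5 hpf. Leaving out 1 array gave 3 to 4 higher and 5 to 9 lower, and their median ran from -0.38 to 0.07. For 6 genes of pancreas, mucous cells and ionocytes the sum was 504 and 527 against 328 and 358, and only cldn7b of them was bright enough to be tested. At most 2 of these 6 genes reached a deposited intensity of 32 on any of the arrays. As deposited, the notochord and hatching gland sum was 2598.5 and 3301.1 in the Spt5 morpholino group, against 2923.6 and 3804 in the control group. On that scale it was lower with the Spt5 morpholino for each replicate number. The part of these tissues in the differences of the folding genes was not tested.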

How the data were processed

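The 6 samples were grouped by their titles. The deposited table holds linear intensities, 1 per probe set and array, and GCRMA is named in the submitters' processing notes, with its settings not given in the sources used here. Array medians differ, so log2 intensities without 115 control probe sets were quantile normalized over the arrays of each comparison: 4 for the morpholinos, 5 at 21 hpf and 2 for the ages. A probe set was kept at log2 5 (intensity 32) on at least 2 arrays, or 1 for the ages. Lists used each gene's probe set with the highest mean. Differences were tested two-sided in R 4.3.3 by limma 3.58.1 (lmFit, eBayes), with Benjamini-Hochberg adjustment at 0.05 over all probe sets kept, and the code was tested on simulated data. The residual degrees of freedom were 2, the lone untreated array was assumed to vary like the other groups, and precision is limited by the number of arrays. Ages were compared without a test, at 2-fold. Groups whose arrays all lay below log2 5 were raised to 5 for a bound ("at least"). Of 15617 probe sets, 10802 had 1 platform symbol, 135 several and 4680 none. Entrez identifiers updated 10718 to RefSeq's table for GRCz12tu.

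Named genes were the 8 members, supt5h, up to 4 called genes with the largest difference per ER list, and each member's nearest non-member profile. The genes sdf2, pdia5 and pdia7, the marker genes agr2 and cldn7b, and the relatives clgn and calr3a were named outside that rule. For other genes the report says where this was so. The members and lists were chosen with earlier results of these data known. Alternatives were the values as deposited, centring on 18 spike-in probe sets, no filter, a filter at log2 6, each array left out, and the replicate number as a block. Sequences of the genes, their promoters and the probes were not used here. No coordinates are given, because the arrays name no genome build.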

Additional observations from a re-analysis of the deposited data

How the results depend on the processing

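Between the morpholinos 4001 probe sets were called in all, and 3303 of 5921 (55.8%) with the filter at log2 6. The count was 1655 as deposited, 4426 on the spike-in scale, 874 with no filter on dim probe sets and 2352 to 2788 with 1 array left out. Of the 8 folding genes 3 were called, and 0 as deposited, 1 on the spike-in scale, 0 with no filter, 5 with the filter at log2 6 and 1 to 2 with 1 array left out. Replicate numbers were shared between the morpholino groups, but the labels do not state a pairing, and with 2 pairs the correlation of same-numbered deviations was 0.25. With the replicate number as a block 5 members were called, hsp90b1 and calr being added (limma, adjusted p = 0.0294 and 0.0323), and 4439 probe sets in all. For the control morpholino against untreated embryos 250 probe sets were called, and 58 as deposited, 0 with no filter, 490 at log2 6 and 2 to 10 with 1 array left out. For the Spt5 morpholino against untreated embryos 3823 were called, and 1525 as deposited, 649 with no filter and 2515 to 3669 with 1 array left out. Members called there numbered 3, and 0 as deposited or with no filter. For the ages 5859 probe sets differed by at least 2-fold, and 9232 with no filter.

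The sign of a member's difference changed in 14 of 232 recomputed values, none of them called. Between the ages xbp1 went from -0.41 to 0.70 as deposited and 0.68 on the spike-in scale. Between the morpholinos pdia4 went to -0.17 as deposited and -0.22 on the spike-in scale, and ran from -0.066 to 0.18 with 1 array left out. On the spike-in scale pdia6 went to -0.035. The value of pdia3 ran from -0.12 to 0.081 with 1 array left out. For the control morpholino against untreated embryos pdia6 ran from -0.073 to 0.17 with 1 array left out. For the Spt5 morpholino against untreated embryos calr went to -0.10 and -0.14, and xbp1 to -0.022 and -0.067, as deposited and on the spike-in scale, and pdia6 to -0.018 on the spike-in scale. Changes in counts with no filter come with 15502 probe sets tested. That is in place of 8457 between the morpholinos, 8701 against untreated embryos at 21 hpf and 9294 between the ages. For the other settings the cause was not tested. Of the 26 named list genes 8 kept their calls as deposited, 3 with no filter and 26 with the block. Arrays with a lower median intensity had fewer probe sets above an intensity of 32, from 6523 at 5 hpf to 8961, which limits what could be tested for dim genes.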
